A study of Sus scrofa with 6 samples.

Results

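A set of 10 collagen genes was followed in the longissimus dorsi, a back muscle, of pigs with and without an adipocyte-specific *UCP1* knock-in. They encode chains of collagen VI (*COL6A1*, *COL6A2*, *COL6A3*, *COL6A5* and *COL6A6*), collagen XXVIII (*COL28A1*), the fibril-associated collagens XII, XIV and XXI (*COL12A1*, *COL14A1* and *COL21A1*) and collagen VIII (*COL8A1*). The 10 genes were taken by symbol, by a rule that uses no measured value but was set with earlier results of these data known, and 9 of them had a row among the 30476 genes counted. *COL6A2* had no row under its identifier and was not analysed here. The 2 groups were UCP1 KI pigs and WT pigs of 6 months of age, with 3 libraries each. The knock-in was made with CRISPR/Cas9 and places *UCP1*, the uncoupling protein of brown fat, under adipocyte-specific expression, so muscle fibres were not the cells meant to express it. Genotype was not checked against *UCP1* counts. The gene name table holds no identifier for *UCP1*, and counts in muscle need not show a knock-in meant for adipocytes. The paper reports that its RNA-seq found no *UCP1* mRNA in the muscle of either group. The labels number the replicates without saying that each is a separate pig. They are treated here as separate pigs, and the p-values measure only the spread between these libraries.

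Collagen VI is built as a heterotrimer in which the products of *COL6A1* and *COL6A2* join a longer chain, usually that of *COL6A3* and in some places that of *COL6A5* or *COL6A6*. The trimers assemble into beaded microfibrils that lie next to the basement membrane of muscle fibres and tie it to the surrounding connective tissue, and in muscle they are made mainly by fibroblasts. Mutations in the main chains cause the Bethlem and Ullrich muscle disorders. Collagen XXVIII carries von Willebrand factor A domains like those of collagen VI and is known from peripheral nerve. The FACIT collagens, whose triple helices are interrupted, do not form fibrils of their own but sit on fibrils of collagen I. Collagen VIII is neither beaded nor a FACIT, but a short-chain collagen that forms networks, mostly in vessel walls.

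Total counts on genes lay between 30220951 and 35066624 per library, and the TMM scaling factors between 0.781 in WT replicate 2 and 1.18 in UCP1 KI replicate 2. Levels are given as CPM, the count divided by the TMM-scaled library total and multiplied by 1000000. With 0 counts a level of up to 3 counts remains possible, or 0.0795 to 0.11 CPM, a limit that covers counting error only. Transcript lengths were not used here, so levels are compared between pigs and not between genes. The tissue label was checked on *ACTA1*, *CKM* and *DES*, which together held 44300 to 72300 CPM in the UCP1 KI pigs and 58900 to 71000 CPM in the WT pigs, while 6 other muscle fibre markers had no row and were not analysed here.

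Of the 9 genes with counts, 8 passed the filter on low counts, and *COL6A5* did not. All 8 had a log2 fold change below 0, that is lower levels in UCP1 KI than in WT, as did 51.3% of all 13402 genes tested, and with scaling by library size only 7 of the 8 did, all but *COL8A1*, against 31.9%. *COL6A1*, *COL6A6* and *COL28A1* were lower in the UCP1 KI pigs past both limits of the comparison, which are a log2 fold change beyond 0.5 in either direction and a p under 0.05, before adjustment, in the quasi-likelihood test of edgeR. Among all genes tested 8.19% were past these limits, 4.34% lower and 3.84% higher, and 8.21% met the limit on p alone, as did the same 3 collagen genes. The other 5 genes, *COL6A3*, *COL12A1*, *COL14A1*, *COL21A1* and *COL8A1*, did not pass. With Benjamini-Hochberg adjustment over all genes tested, 0 of the 8 had an adjusted p under 0.05 in edgeR, where the smallest was 0.583, and 0 did in DESeq2, where it was 0.0884. In all genes tested the adjusted limit was met by 0 in edgeR, where 1100 had an unadjusted p under 0.05, and by 127 in DESeq2. The median log2 fold change of the 8 genes was -0.95, against -0.02 for all genes tested, and with library size only, which raised the median of all genes by 0.25, it was -0.71. *COL6A6* passed the filter on low counts only through the WT pigs, where it was higher. Without it, 2 of the remaining 7 genes were past both limits and the median was -0.90. Only 1 collagen gene, *COL6A6*, was past both limits without replicate 3 of the UCP1 KI group or replicate 2 of the WT group, 2 were without WT replicate 1, and *COL6A6* alone was past them with scaling by library size only. Under that scaling 1.46% of all genes tested were called lower, in place of 4.34%. In bulk muscle, fewer cells that make a collagen and less of its RNA per cell cannot be told apart.

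**Figure D1:**
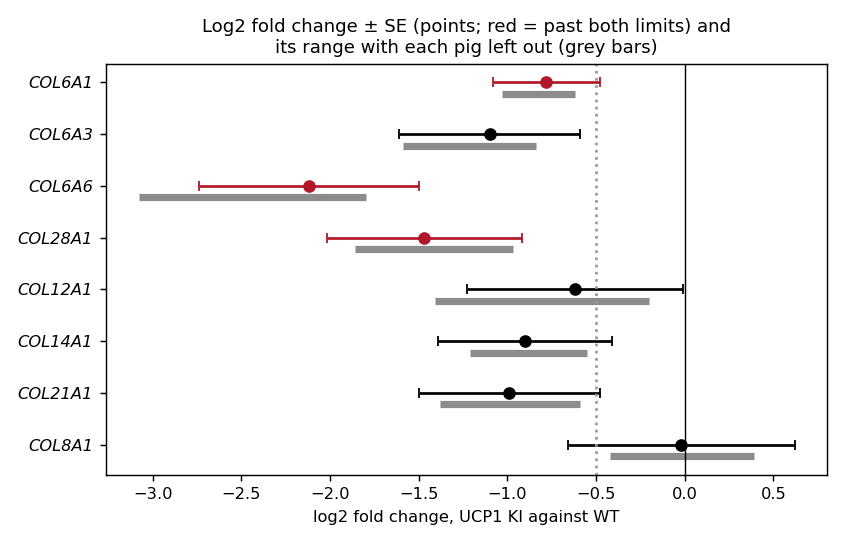
Log2 fold change of the 8 tested collagen genes, UCP1 KI against WT, on the horizontal axis (points with SE, red where past both limits), with the range over 6 fits that each leave out 1 pig as grey bars and the fold limit of -0.5 as a dotted line. All points lie below 0 with TMM scaling, and only the bar of *COL8A1* crosses it, from -0.42 to 0.39.

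*COL6A1* (ENSSSCG00000022506), whose product is a shared chain of every collagen VI trimer, was measured at 123, 70.7 and 86.3 CPM in UCP1 KI replicates 1 to 3, and at 182, 175 and 124 CPM in WT replicates 1 to 3. Every UCP1 KI pig was below every WT pig, but UCP1 KI replicate 1 and WT replicate 3 nearly met. The means were 93.5 ± 27.1 CPM (SD, n = 3) and 160 ± 31.8 CPM (SD, n = 3), which is 1.72-fold lower in the UCP1 KI pigs. The log2 fold change was -0.78 (standard error, SE, 0.30), with an unadjusted p of 0.0313 and an adjusted p of 0.583 from the edgeR quasi-likelihood test. A two-sided exact permutation test gave p = 0.1, the smallest that 3 pigs against 3 allow. The call on *COL6A1* rested on several libraries. It was lost when replicate 2 (-0.62) or 3 (-0.72) of the UCP1 KI group was left out, or replicate 1 (-0.68) or 2 (-0.71) of the WT group, and kept without either of the other 2 pigs. With library size only the log2 fold change was -0.56, and the groups overlapped, since UCP1 KI replicate 1 was then at 117 CPM and WT replicate 3 at 114 CPM.

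*COL6A3* (ENSSSCG00000027331), the usual long chain, lies on chromosome 15 at 137011549 to 137103687 of Sscrofa11.1. Its levels were 38.5, 72.4 and 27.9 CPM in UCP1 KI replicates 1 to 3 and 124, 131 and 41.2 CPM in WT replicates 1 to 3. WT replicate 3 stood with the UCP1 KI pigs, below UCP1 KI replicate 2, so the groups overlapped. Mean *COL6A3* was 46.3 ± 23.2 CPM in UCP1 KI and 98.8 ± 50.0 CPM in WT (SD, n = 3 each). This log2 fold change, -1.10 (SE 0.51), was larger in size than that of *COL6A1* but did not pass, with an unadjusted p of 0.0669 and an adjusted p of 0.622 from the edgeR quasi-likelihood test. *COL6A3* passed both limits without UCP1 KI replicate 2 (-1.59), without WT replicate 3 (-1.46) and in DESeq2. It also passed them without the filter on low counts (-1.07) and with a block on replicate number (-1.04).

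Because 1 chain from each gene enters a trimer, the ratio of *COL6A3* to *COL6A1* within a pig was also compared. The ratio itself does not depend on library scaling, whereas its test, on log2(CPM + 1), depends on it slightly. It was 0.312, 1.02 and 0.324 in UCP1 KI replicates 1 to 3 and 0.681, 0.750 and 0.333 in WT replicates 1 to 3. UCP1 KI replicates 1 and 3 and WT replicate 3 thus had about the same low ratio, and UCP1 KI replicate 2 the highest. The ratio spanned 3.29-fold among UCP1 KI pigs and 2.25-fold among WT pigs. On the scale of log2(CPM + 1) it averaged -1.07 ± 0.96 (SD, n = 3) and -0.84 ± 0.63 (SD, n = 3), a difference of -0.23 (two-sided exact permutation test, p = 0.8). The difference was 0.06 without UCP1 KI replicate 1 and -0.78 without UCP1 KI replicate 2. The balance of the 2 chains therefore varied between pigs of a group by more than between the groups.

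**Figure D2:**
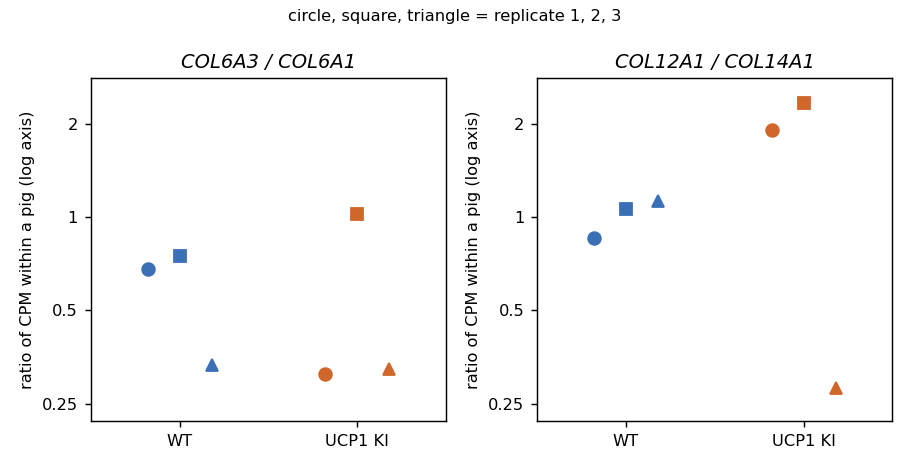
Ratio of CPM within each pig on a log axis, for *COL6A3* to *COL6A1* (left) and *COL12A1* to *COL14A1* (right), with WT pigs in blue, UCP1 KI pigs in orange, and circle, square and triangle for replicates 1, 2 and 3. The groups overlap in both panels, and the right panel shows UCP1 KI pigs at 0.281 to 2.33 around WT pigs at 0.855 to 1.13.

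*COL6A6* and *COL6A5* encode the alternative long chains and lie 43574 bases apart on chromosome 13 of Sscrofa11.1, *COL6A6* at 1817475 to 1985968 and *COL6A5* at 2029543 to 2174404. *COL6A6* (ENSSSCG00000037430) had the largest log2 fold change of the 8 genes. Its counts were 8, 10 and 39 in UCP1 KI replicates 1 to 3 and 62, 75 and 74 in WT replicates 1 to 3, which correspond to 0.259, 0.280 and 1.03 CPM against 1.71, 2.74 and 2.47 CPM. All UCP1 KI pigs were below all WT pigs, also with library size only, and UCP1 KI replicate 3 came nearest to them. The means of *COL6A6* were 0.524 ± 0.441 CPM (SD, n = 3) and 2.31 ± 0.534 CPM (SD, n = 3), or 4.34-fold lower in the UCP1 KI pigs. Its log2 fold change was -2.12 (SE 0.62). The edgeR quasi-likelihood test gave p = 0.00995 before and 0.583 after adjustment, and the exact permutation test p = 0.1. When pigs were left out 1 at a time it lay between -3.08 and -1.80, past both limits each time and lowest without UCP1 KI replicate 3, but the gene had entered the test through its WT counts. It was left out when 10 counts were asked of every pig. Relative to *COL6A3*, its CPM was 0.00673, 0.00387 and 0.0370 in the UCP1 KI pigs and 0.0138, 0.0209 and 0.0599 in the WT pigs, so this ratio overlapped between the groups.

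*COL6A5* (ENSSSCG00000011186) was counted 0, 7 and 4 times in the UCP1 KI pigs and 2, 0 and 4 times in the WT pigs. These levels were at the limit of the depth in both groups, and a difference was not detectable.

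*COL28A1* (ENSSSCG00000015342), the collagen XXVIII gene, lies on chromosome 9 at 77670890 to 77841939 of Sscrofa11.1. It had counts of 12, 37 and 27 in the UCP1 KI pigs and 56, 87 and 38 in the WT pigs, or 0.388, 1.04 and 0.715 CPM against 1.54, 3.18 and 1.27 CPM. Each UCP1 KI pig was below each WT pig, with WT replicate 2 well above the rest. Mean *COL28A1* was 0.714 ± 0.325 CPM in UCP1 KI and 2.0 ± 1.03 CPM in WT (SD, n = 3 each), 2.78-fold lower in the former. Its log2 fold change was -1.47 (SE 0.55), with an unadjusted p of 0.0300 and an adjusted p of 0.583 from the edgeR quasi-likelihood test. The call was lost without WT replicate 2 (-0.97), UCP1 KI replicate 1 (-1.18) or UCP1 KI replicate 3 (-1.48), and with library size only (-1.12), where the groups overlapped. RefSeq places another locus across part of *COL28A1*, as it does for *COL6A6*, *COL8A1* and *COL14A1*, and the sources used here do not say whether reads were counted by strand.

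**Figure D3:**
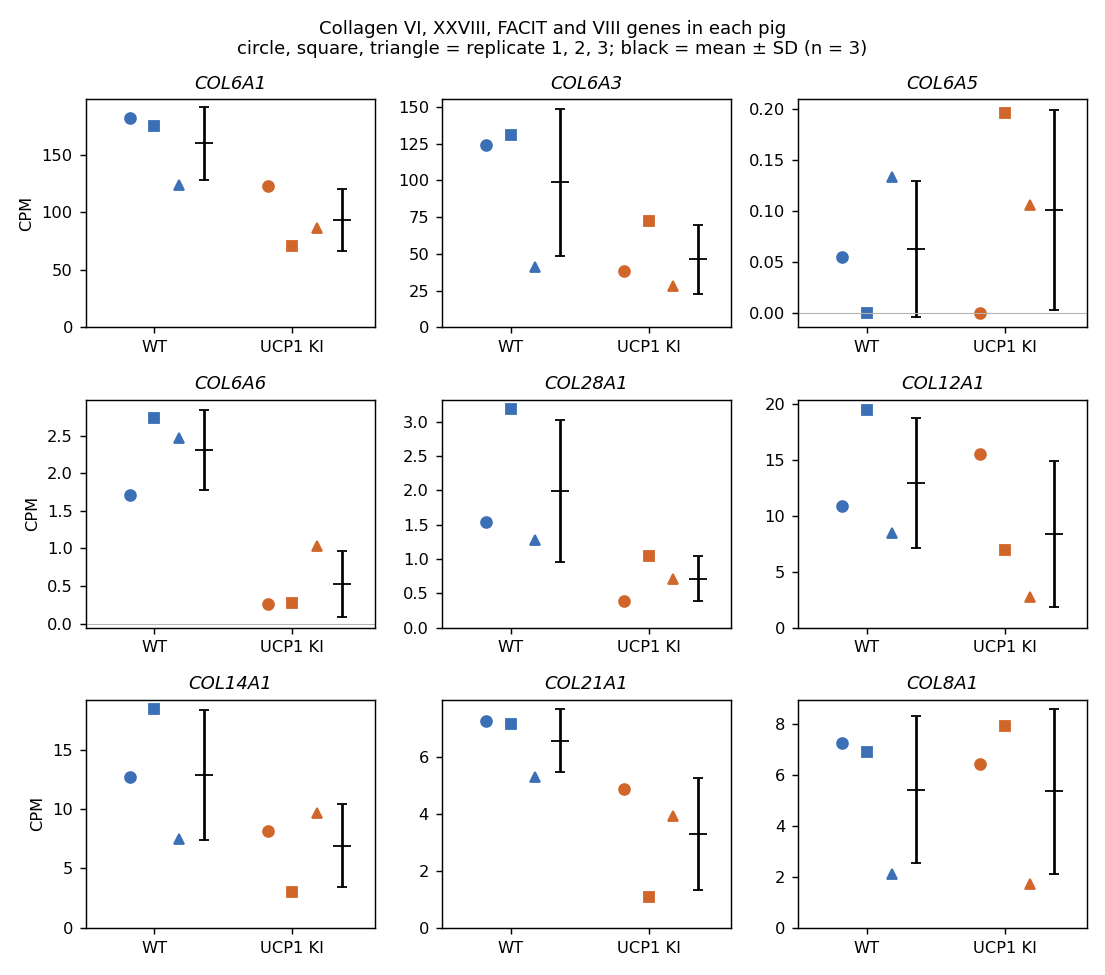
CPM (vertical axis, linear) of the 9 counted collagen genes in each pig, with WT in blue and UCP1 KI in orange, circle, square and triangle for replicates 1, 2 and 3, and the mean ± SD of 3 pigs in black. *COL6A1*, *COL6A6*, *COL28A1* and *COL21A1* show no overlap between groups, and in *COL8A1* the triangles are the low points of both groups, at 1.72 and 2.10 CPM.

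Among the FACIT genes, *COL21A1* (ENSSSCG00000001500), on chromosome 7 at 29414851 to 29609039, separated the groups. It was at 4.88, 1.09 and 3.92 CPM in UCP1 KI replicates 1 to 3 and at 7.25, 7.16 and 5.31 CPM in WT replicates 1 to 3, without overlap under either scaling. With it, 4 of the 8 genes were lower without overlap, against 7.69% of all genes tested (15.3% in either direction), and 0 were higher without overlap, against 7.59%. Leaving out *COL6A6*, it was 3 of 7. With library size only there were 2, *COL6A6* and *COL21A1*, against 2.63%. The *COL21A1* means of 3.30 ± 1.97 CPM (SD, n = 3) and 6.57 ± 1.10 CPM (SD, n = 3) corresponded to -0.99 (SE 0.51) on the log2 scale. The test did not call it, with an unadjusted p of 0.0900 and an adjusted p of 0.645 from edgeR. Without UCP1 KI replicate 1 it passed, at -1.38, and without UCP1 KI replicate 2, the pig at 1.09 CPM, it was -0.59.

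*COL14A1* (ENSSSCG00000005997), on chromosome 4 at 18690197 to 18925111, encodes the chain of collagen XIV, which binds decorin on collagen fibrils. It was at 8.12, 3.0 and 9.62 CPM in the UCP1 KI pigs and at 12.7, 18.4 and 7.47 CPM in the WT pigs. WT replicate 3 was below UCP1 KI replicates 1 and 3, so the groups overlapped. Its log2 fold change was -0.90 (SE 0.49), with an unadjusted p of 0.108 and an adjusted p of 0.656 from edgeR. It lay between -1.21 and -0.55 when pigs were left out 1 at a time, none of these past the limits.

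*COL12A1* (ENSSSCG00000004484), on chromosome 1 at 90744409 to 90875127, encodes collagen XII, which is abundant at tendon and fascia and linked to a myopathy of its own. Levels of *COL12A1* were 15.5, 6.98 and 2.70 CPM in the UCP1 KI pigs and 10.9, 19.5 and 8.44 CPM in the WT pigs. The UCP1 KI pigs alone spanned most of the range, with replicate 1 above 2 of the WT pigs. Mean levels were 8.40 ± 6.53 CPM in UCP1 KI and 12.9 ± 5.81 CPM in WT (SD, n = 3 each). The log2 fold change was -0.62 (SE 0.61), with an unadjusted p of 0.337 and an adjusted p of 0.795 from edgeR. It passed both limits without UCP1 KI replicate 1, at -1.41, and was -0.20 without UCP1 KI replicate 3.

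*COL12A1* and *COL14A1* did not keep step in the UCP1 KI pigs. The ratio of *COL12A1* to *COL14A1*, chosen after the values were seen, was 0.855, 1.06 and 1.13 in WT replicates 1 to 3 but 1.91, 2.33 and 0.281 in UCP1 KI replicates 1 to 3. It spanned 1.32-fold among WT pigs and 8.23-fold among UCP1 KI pigs, with values on both sides of the WT range. On average the log2(CPM + 1) difference of the pair did not separate the groups, at 0.11 ± 1.41 (SD, n = 3) and 0.01 ± 0.19 (SD, n = 3), and the wider spread in the UCP1 KI pigs was not tested.

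*COL8A1* (ENSSSCG00000011973), the network-forming member, lies on chromosome 13 at 159216138 to 159374718. It was at 6.44, 7.94 and 1.72 CPM in the UCP1 KI pigs and at 7.28, 6.90 and 2.10 CPM in the WT pigs. Replicate 3 was the low pig in each group, and the means, 5.36 ± 3.24 CPM (SD, n = 3) and 5.43 ± 2.89 CPM (SD, n = 3), lay much closer together than the pigs of a group. The log2 fold change of -0.02 (SE 0.64), with an adjusted p of 0.994 from edgeR, turned to 0.21 with library size only and ranged from -0.42 to 0.39 when pigs were left out 1 at a time. With 3 pigs a group and this spread, a moderate difference in *COL8A1* in either direction was not detectable.

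Set beside each other, the genes differed in which pigs were low. On the log2(CPM + 1) scale and relative to each gene's mean over the 6 pigs, the average of the 8 genes was 0.49, 0.79 and -0.10 in WT replicates 1 to 3 and -0.13, -0.48 and -0.58 in UCP1 KI replicates 1 to 3. WT replicate 3 therefore lay level with UCP1 KI replicate 1. WT replicate 2, which had the smallest scaling factor, was the highest pig for *COL6A3*, *COL6A6*, *COL28A1*, *COL12A1* and *COL14A1*. UCP1 KI replicate 2 was the lowest pig for *COL6A1* (-0.75), *COL14A1* (-1.29) and *COL21A1* (-1.38), yet the highest for *COL8A1* (0.63) and the highest of its group for *COL6A3* (0.24). UCP1 KI replicate 3 was the lowest for *COL6A3* (-1.11), *COL12A1* (-1.46) and *COL8A1* (-1.08), and near its mean for *COL14A1* (0.12). The lowest pig thus differed from gene to gene.

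**Figure D4:**
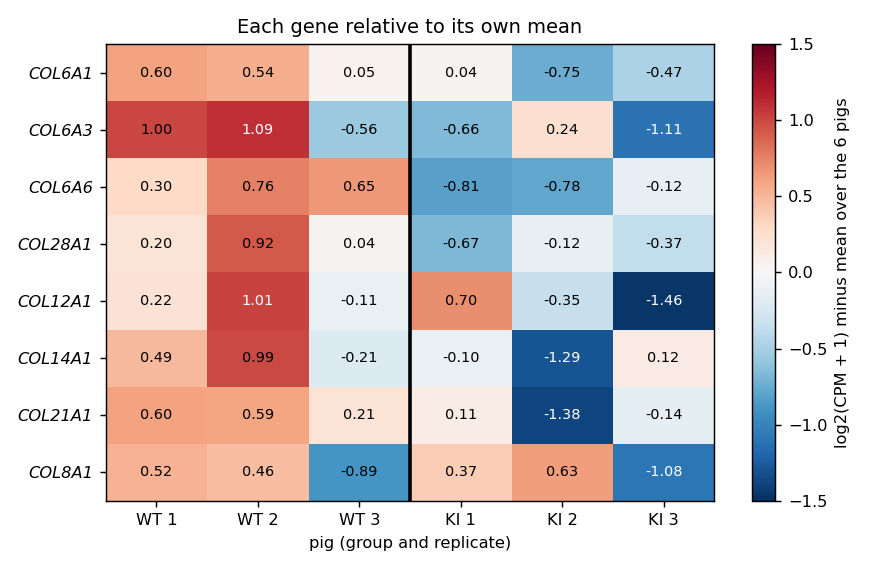
Log2(CPM + 1) of the 8 tested collagen genes (rows) in each pig (columns), minus the gene's mean over the 6 pigs, in red where higher and blue where lower, with a black line between WT and UCP1 KI pigs. The deepest blue cells fall on *COL12A1* in UCP1 KI replicate 3 (-1.46) and *COL21A1* in UCP1 KI replicate 2 (-1.38).

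The mean pattern of *COL6A1* and *COL6A3* over the 6 pigs was compared with every other tested gene that has a symbol, 11295 in number, by the root mean square difference of the centred log2(CPM + 1) values. The 5 nearest genes were *COL18A1* at 0.143, *NIBAN1* at 0.148, *FES* at 0.150, *EPB41L2* at 0.154 and *PRELID1* at 0.157. *COL18A1*, which encodes a proteoglycan collagen of basement membranes, was at 9.25, 7.32 and 5.64 CPM in the UCP1 KI pigs and 17.7, 22.5 and 8.94 CPM in the WT pigs. The distance of *COL6A1* and of *COL6A3* from their own mean is the same by construction, 0.336, and *COL18A1* is the nearest of all genes ranked, so its smaller value is a matter of rank only. Among the other genes of the family, *COL28A1* was the closest, at 0.362, and the rest lay between 0.558 and 0.600. These distances rest on 6 pigs that share their scaling and are a description only.

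Of 25 partner and receptor genes listed, which cover proteoglycans and glycoproteins that bind the collagens, integrins and other receptors, and proteases, all 25 were tested, and 18 had a log2 fold change below 0 (17 with library size only), where 51.3% of all genes tested did (31.9% with library size only). *FMOD*, *MATN2*, *BGN*, *MFAP2* and *LUM* were lower past both limits and *CD44* higher, 6 of 25 where 8.19% of all genes tested were called, and the list's median was -0.45 (-0.17 with library size only). With library size only, *FMOD* (-1.29) and *CD44* (1.10) alone were called. *BGN*, biglycan, which binds collagen VI, was at 26.9, 18.3 and 11.5 CPM in the UCP1 KI pigs and 42.3, 55.5 and 23.0 CPM in the WT pigs, a log2 fold change of -1.09 (SE 0.42) with overlapping groups. *FMOD*, fibromodulin, a regulator of fibril growth, was 2.74-fold lower (-1.46, SE 0.53), and *MATN2*, a matrilin that bridges matrix filaments, 2.16-fold lower (-1.11, SE 0.41). *LUM*, the fibril proteoglycan lumican, and *MFAP2*, a microfibril glycoprotein, had -0.57 and -0.87. *CD44*, the hyaluronan receptor, was at 12.1, 11.7 and 6.57 CPM in the UCP1 KI pigs and 5.13, 5.44 and 6.07 CPM in the WT pigs, without overlap (0.86, SE 0.30). Adjusted p values of these 6 genes from edgeR were at least 0.583. Without UCP1 KI replicate 2 or WT replicate 2, 0 of the list passed both limits, and without WT replicate 1 it was 1.

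Other partners were not called. The decorin gene *DCN* had a log2 fold change of -0.39, *ITGB1*, the common beta chain of collagen-binding integrins, -0.31, and *HSPG2*, the perlecan gene, -0.53. The anthrax toxin receptors that bind collagen VI also stayed below the limits, *ANTXR1* at -0.30 (SE 0.35) and *ANTXR2* at -0.04 (SE 0.38), as did *CSPG4*, the NG2 proteoglycan gene, at -0.97 (SE 0.58). *TNXB*, the tenascin-X gene, whose product binds collagens XII and XIV, was at -0.73 with an unadjusted p of 0.0524 from edgeR. Of the partners not called, *PCOLCE* fell most, at -1.14 (SE 0.51, unadjusted p of 0.0555 from edgeR), without overlap between the groups. *TNC* rose most, at 1.54 (SE 1.04), with overlap.

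Of 10 other FACIT and short-chain collagens listed, 7 had a row and 4 were tested, of which 2 were below 0 and 1 was called lower, against 4.34% of all genes tested. *COL16A1*, a FACIT collagen gene, was the called one, at 3.14, 0.926 and 1.62 CPM in the UCP1 KI pigs and 4.22, 6.25 and 2.97 CPM in the WT pigs (log2 fold change -1.24, SE 0.51, unadjusted p = 0.0424 from edgeR). It was not called with library size only (-1.02) or without UCP1 KI replicate 2 or 3 or WT replicate 1 or 2. *COL8A2*, the partner chain of *COL8A1*, had a log2 fold change of -1.16 with a standard error of 1.05. *COL9A3* and *COL19A1* had 0.21 and 0.28 and were not called, *COL22A1* was not tested, and *COL9A1* was at 0 counts in all 6 pigs.

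For comparison, 6 of 10 tested fibrillar collagen genes were lower past both limits, with a median of -0.89, and 2 of 7 tested basement membrane collagen genes, also with a median of -0.89, where 4.34% of all genes tested were lower past them and the median was -0.02. With library size only these medians were -0.66 and -0.60. *COL1A1*, the main fibrillar chain, had -1.86 (SE 0.31), *COL1A2* -1.70 and *COL3A1* -1.57, and *COL5A1*, *COL5A3* and *COL27A1* lay between -1.34 and -0.87. *COL1A1*, *COL1A2* and *COL5A3* were called whichever pig was left out, whereas *COL3A1* was not called without WT replicate 2, and with library size only *COL1A1*, *COL1A2* and *COL3A1* remained called. The basement membrane calls were *COL4A5* (-1.45) and *COL18A1* (-1.15), and 4 genes of this list passed without WT replicate 3, whereas leaving out replicate 2 of either group left 0. The most abundant genes of this list by counts, *COL4A1*, *COL4A2* and *COL15A1*, had -0.49, -0.58 and -0.51 and were not called. Whether the lists differ from each other was not tested.

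**Figure D5:**
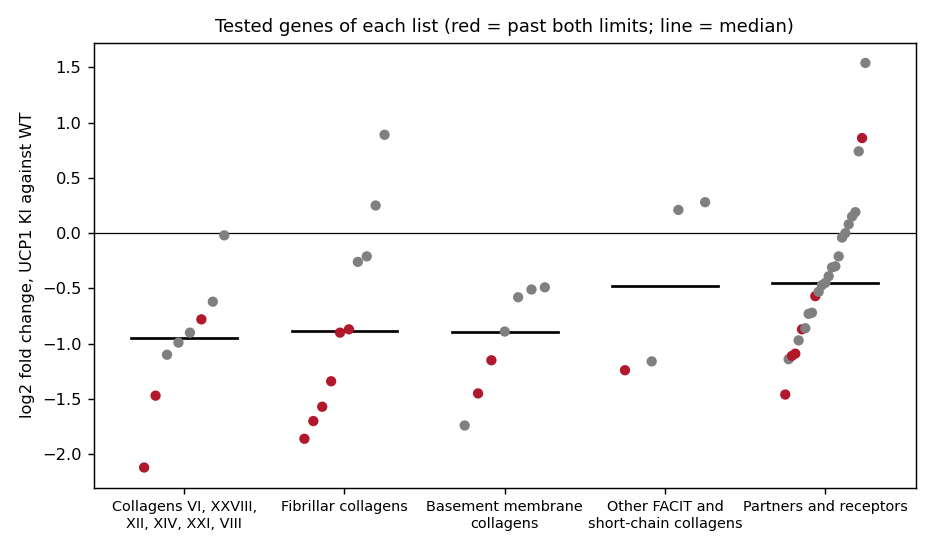
Log2 fold change, UCP1 KI against WT (vertical axis), of each tested gene in 5 lists, with genes past both limits in red and the list median as a black line. The medians are -0.95, -0.89, -0.89, -0.48 and -0.45 from left to right with TMM scaling (-0.71, -0.66, -0.60, -0.21 and -0.17 with library size only), and *CD44* is the red point above 0.

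Markers of the cell types that muscle can hold were examined beside the collagens. Their counts are to be read against all genes tested, of which 8.19% were called and 51.3% were below 0 (31.9% with library size only). Of 8 fibroblast markers, 6 were measured, with a summed level of 72.2 to 104 CPM in the UCP1 KI pigs and 83.8 to 185 CPM in the WT pigs. *SFRP2*, a secreted Wnt modulator, was the called one, with a log2 fold change of -2.67 (SE 0.43) and means of 0.560 ± 0.224 CPM in UCP1 KI and 3.6 ± 0.600 CPM in WT (SD, n = 3 each). The others were not called, with log2 fold changes of -0.83 for *CD34*, -0.49 for *MFAP5*, -0.35 for *PI16*, -0.08 for *PDGFRA* and 0.17 for *DPT*. In all, 5 of the 6 fibroblast markers were below 0 (4 with library size only), with a median of -0.42 (-0.21 with library size only). The 6 smooth muscle and pericyte markers, led by *RGS5*, *ACTA2* and *PDGFRB*, were all below 0, with a median of -0.94 (-0.66 with library size only) and sums of 266 to 365 CPM against 312 to 693 CPM, and *NOTCH3* was called (-1.02). The *NOTCH3* call was lost with library size only (-0.83) and in 3 of 6 fits without 1 pig, and its log2 fold change was -0.43 without WT replicate 1. Of 5 measured endothelial markers, led by *PECAM1*, *CDH5* and *KDR*, 1 was below 0 under either scaling. Their median was 0.04 (0.25 with library size only), with sums of 298 to 542 CPM against 277 to 516 CPM. *TEK* was called higher (1.20), whereas *PECAM1* (0.01), *CDH5* (0.04), *KDR* (0.50) and *TIE1* (-0.29) were not called. Leukocyte sums, led by *CSF1R*, *CD163* and *MRC1*, were 21.1 to 63.9 CPM against 22.1 to 39.0 CPM, and all 6 leukocyte markers were above 0, with a median of 0.59 (0.91 with library size only). *CD3E* was called higher (1.84), a call kept in 2 of 6 fits without 1 pig and lost without UCP1 KI replicate 2, at 0.95. Of 6 tendon markers 2 were tested, *THBS4* (0.24) and *KERA* (-0.86), and neither was called, with sums over the list of 23.0 to 73.4 CPM against 13.5 to 85.0 CPM. The other 4, *COMP*, *TNMD*, *SCX* and *MKX*, did not pass the filter on low counts, *COMP* because it was read almost only in replicate 1 of each group. *MKX*, a tendon transcription factor gene, was at 0.097, 0.196 and 0.185 CPM in the UCP1 KI pigs and 1.57, 0.621 and 0.334 CPM in the WT pigs, without overlap. Of 6 adipocyte markers 5 were tested, all but *LEP*, and 0 were called, with 4 below 0, a median of -1.13 (-0.74 with library size only) and sums of 135 to 161 CPM against 99.9 to 315 CPM. The list was led by *FABP4* (-1.22), *PLIN4* (0.49) and *ADIPOQ* (-1.26). All 3 satellite cell markers, *MYF5*, *PAX7* and *CALCR*, were tested and 0 were called, with sums of 6.20 to 9.28 CPM against 4.86 to 10.1 CPM. Of the red blood cell markers *ALAS2* (-1.04) and *AHSP* (-2.18) were tested and not called, and *SLC4A1* was too low, with sums of 0.140 to 1.20 CPM against 1.24 to 2.67 CPM. No measured marker of these lists was at 0 in all 6 pigs. The part of these cell types in the collagen values was not tested.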

How the data were processed

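RNA of longissimus dorsi muscle from 3 UCP1 KI and 3 WT pigs was sequenced as paired-end mRNA libraries. Per the submitters' processing notes, reads were handled with FastQC 0.11.2, Trimmomatic 0.36, HISAT2 2.0, bedtools 2.26.0, StringTie 1.3.3b and DESeq2 1.12.4 on Sscrofa11.1. The table deposited by the authors holds raw read counts, not normalized, with 1 row per Ensembl gene. StringTie is named for expression values of transcripts, but which program made the raw counts, its strand setting and the annotation release are not given in the sources used here.

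The analysis used edgeR 4.0.16 in R 4.3.3: filterByExpr, TMM factors, and a two-sided quasi-likelihood F test with condition as the only term, fitted on the whole table of 30476 genes, of which 20062 had any count and 13402 were tested. Calls needed p under 0.05 before adjustment and a log2 fold change beyond 0.5 in either direction, the limits of the study, and Benjamini-Hochberg adjustment ran over all genes tested. The standard error is the log2 fold change divided by the square root of F. Exact permutation tests enumerated the 20 assignments of 6 pigs. A name table gave symbols for 14864 of the Ensembl identifiers, and positions came from RefSeq genes of Sscrofa11.1, which held 8 of the 10 collagen genes on a named chromosome. The ratio planned against the mean of *COL6A1* and *COL6A2* was taken against *COL6A1* alone.

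The collagen genes and all lists were chosen with earlier results of these data known. Named were all collagen genes of the family, listed genes past both limits, the 3 of each list with the most counts, the 5 nearest genes by pattern, and, after their values were seen, a few further listed partners and markers. Alternatives were DESeq2 1.42.0, median-of-ratios factors, library size only, no low-count filter, a minimum of 10 counts per pig, a block on replicate number, no fold limit, and each pig left out. Those for fibrillar and basement membrane lists, other named genes and ratios other than *COL6A3* to *COL6A1* were added after the values were seen. The procedure was tested on simulated counts. The result of 1 further marker list is not reported here.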

Additional observations from a re-analysis of the deposited data

How the results depend on the processing

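The median log2 fold change of the collagen genes stayed below 0 under every alternative run, at -1.15 to -0.60 when pigs were left out 1 at a time, and the number called then ranged from 1 to 4. With library size only 82.7% of calls were higher in place of 46.9%, and 8.39% of all genes tested were called, 1.46% lower, with 1 of these collagen genes, 2 partners, 0 other FACIT and short-chain collagens and 3 fibrillar collagens past both limits. *COL6A1* (-0.56) and *COL28A1* (-1.12) were then not called and *COL8A1* was at 0.21. *COL6A3* was called in DESeq2 (-1.10), without a low-count filter (-1.07) and under a block on replicate number (-1.04). Without the filter *COL8A1* was at 0.00, and *COL6A5*, which no other setting tested, at 0.66. When pigs were left out 1 at a time, log2 fold changes lay between -1.03 and -0.62 for *COL6A1*, -1.59 and -0.84 for *COL6A3*, -3.08 and -1.80 for *COL6A6*, -0.42 and 0.39 for *COL8A1*, -1.41 and -0.20 for *COL12A1*, -1.38 and -0.59 for *COL21A1* and -1.86 and -0.97 for *COL28A1*. The difference in the ratio of *COL6A3* to *COL6A1* lay between -0.78 and 0.06, and that of *COL12A1* to *COL14A1* between -0.34 and 0.92. Counts past both limits then lay between 0 and 9 for partners, 0 and 1 for other FACIT and short-chain collagens, 0 and 4 for basement membrane collagens and 678 and 1541 for all genes, lowest without UCP1 KI replicate 2 (678) and WT replicate 2 (718). The cause of these changes was not tested.

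The labels do not say whether the replicate numbers pair the pigs. Deviations of same-numbered pigs from their group means correlated at 0.00, 0.09 and 0.28 across genes for replicates 1 to 3. The value of 0.28 was the highest of any UCP1 KI and WT pair. UCP1 KI replicate 1 correlated better with WT replicate 2 (0.13), and UCP1 KI replicate 2 about equally with WT replicates 1 (0.1) and 2 (0.09). These correlations cannot decide on pairing, since deviations from a mean of 3 pigs depend on each other. With the replicate block 1114 genes were called in place of 1097, with 0 other FACIT and short-chain and 1 basement membrane collagen. The calls of *LUM*, *MFAP2*, *COL16A1*, *COL4A5*, *NOTCH3* and *CD3E* were lost under it, each with its direction kept. Depth limits *COL6A5*, and to a lesser degree *COL6A6* and *COL28A1*, whose counts were below 100 in every pig.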

Other observations

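The ratio of *COL6A1* to *COL1A1* lay above that of each WT pig in each UCP1 KI pig. The CPM of *COL6A1* was 2.81, 2.40 and 2.41 times that of *COL1A1* in UCP1 KI replicates 1 to 3 and 1.58, 0.975 and 1.23 times in WT replicates 1 to 3, without overlap. These ratios do not compare molecules, since transcript length was not used, and were chosen after the values were seen. Their tests were run on log2(CPM + 1), which depends on the scaling and on the added 1. The difference on the log2(CPM + 1) scale was 1.01 (two-sided exact permutation test, p = 0.1, and 0.3 after Benjamini-Hochberg adjustment over 6 ratios) and stayed at 0.84 to 1.19 when any 1 pig was left out. For *COL14A1* to *COL1A1* the ratios were 0.185, 0.102 and 0.268 against 0.11, 0.103 and 0.0741, which overlap. On the log2(CPM + 1) scale this was a difference of 0.95 (exact permutation p = 0.1, adjusted 0.3), and on raw counts plus 0.5 it was 0.86 (exact permutation p = 0.3). For *COL12A1* and *COL6A3*, the differences relative to *COL1A1* were 1.06 and 0.78, with exact permutation p values of 0.3 and 0.4.

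*COL22A1*, the FACIT collagen gene known from the junction of muscle and tendon, was read almost only in replicate 1 of each group. Its counts were 113, 0 and 8 in UCP1 KI replicates 1 to 3 and 134, 0 and 0 in WT replicates 1 to 3. *COMP*, a cartilage and tendon matrix gene, had counts of 56, 0 and 0 and of 188, 6 and 0 in the same order. *THBS4*, a thrombospondin of tendon and muscle, was also highest in replicate 1 of each group, at 70.4, 44.1 and 22.2 CPM in the UCP1 KI pigs and 75.1, 28.9 and 11.8 CPM in the WT pigs. *TNC*, the tenascin-C gene, did not follow this split, with 40.0, 34.0 and 1.59 CPM in the UCP1 KI pigs and 9.23, 14.6 and 2.27 CPM in the WT pigs. It was lowest in replicate 3 of each group, as were *COL6A3* and *COL8A1*.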
